A study of Mus musculus with 4 samples.

Results

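Xcl1, Ccl3, Ccl4 and Ccl5 are chemokine ligands that activated T cells and natural killer (NK) cells secrete. They were taken by symbol from the deposited expression table, and all 4 had a row among its 24768 complete genes. Their RNA was compared between 2 libraries of wild-type (WT) cDNT cells and 2 libraries of cDNT cells with the genotype label Tbx21-KO, all from mouse. Double-negative T cells, named in the series title, lack the CD4 and CD8 coreceptors, and the title also names the transcription factor T-bet, the product of Tbx21. In the design text the Tbx21-KO group is called a knockdown. The "c" of cDNT is not spelled out, and the way Tbx21 was disrupted, the age of the mice and any treatment are likewise not given in the sources used here. No label ties the libraries to separate cultures or animals, so the p-values measure only how these libraries differ, which can be technical.

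Chemokines are small secreted proteins that bind to glycans and form gradients, and cells that carry the matching G protein-coupled receptor move along them. Xcl1 (lymphotactin) signals through Xcr1, which cross-presenting dendritic cells carry. Ccl3 (MIP-1 alpha), Ccl4 (MIP-1 beta) and Ccl5 (RANTES) are CC chemokines, and Ccl3 and Ccl5 use the receptor Ccr1. Cytotoxic lymphocytes make all 4 ligands, while Ccl3 and Ccl4 are also made by activated myeloid cells and Ccl5 is also stored in platelets.

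The cysteine pattern that names the families can be read in the coding sequences, shown here because it separates Xcl1 from the other ligands. Each line gives 20 codons of the GENCODE M21 coding transcript, 5′ to 3′, and the capitals mark the first cysteine codon at or after codon 25 together with a directly adjacent one.
Xcl1: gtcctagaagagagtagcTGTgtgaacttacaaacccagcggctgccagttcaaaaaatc
Ccl3: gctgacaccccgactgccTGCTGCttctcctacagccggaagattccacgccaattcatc
Ccl4: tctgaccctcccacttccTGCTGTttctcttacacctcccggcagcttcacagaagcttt
Ccl5: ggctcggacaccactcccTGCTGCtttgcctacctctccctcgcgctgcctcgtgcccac
Xcl1 has 1 cysteine codon at that place and the CC ligands have 2 in a row. The coding sequences of Ccl3 and Ccl4 were the most alike of the 6 pairs, with 70.0% identical bases over 273 aligned bases and a longest identical run of 9 bases. No stretch of 31 bases of the Ccl3 or Ccl4 transcript occurs in an annotated transcript of another gene, on either strand. Reads of that length or longer, without mismatches, therefore belong to 1 gene for these neighbours.

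The RNA of the ligands changed in opposite directions. Xcl1 and Ccl4 fell in Tbx21-KO, and Ccl3 and Ccl5 rose. All 4 were called (limma, adjusted p under 0.05), against 53.1% of the 11013 genes tested. Of all genes tested, 30.1% were called higher and 23.0% lower. Counts of calls in the lists below are to be read beside these shares. Levels are in FPKM, fragments per kilobase of exon scaled to library size, and a change is the mean log2(FPKM + 1) of Tbx21-KO less that of WT. The values imply library totals of 23342590 to 24966990 reads, so that each ligand rests on 48 to 1703 reads a library, and the 95% Poisson intervals given below cover counting error only. With 2 libraries against 2 the smallest two-sided p of an exact permutation test is 0.33, so only the fit across all genes was used. For the same reason, groups that do not overlap, as given below for ligands, ratios and sums, are a description and not a test. The share of all genes whose groups do not overlap is not given here.

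Tbx21 itself was at 13.2 FPKM in WT 1, 11.7 in WT 2, 2.29 in Tbx21-KO 1 and 2.41 in Tbx21-KO 2. It was thus lower but not at 0 in the libraries labelled Tbx21-KO. Of 17 measured T cell receptor complex genes none was under 1 FPKM on average in WT, 12 fell and 1 rose, with summed levels of 2127 and 2233 FPKM in WT against 1518 and 1550 FPKM in Tbx21-KO. Thy1 and Trbc2 had the highest levels of that list, at averages of 623.4 and 282.7 FPKM in WT against 511.9 and 164.6 FPKM in Tbx21-KO. The 14 granulocyte markers had summed levels of 11.2 and 14.1 FPKM in WT against 10642 and 10952 FPKM in Tbx21-KO. S100a9 and Ngp, both granulocyte proteins, averaged 3962 and 3200 FPKM there. All 14 were called higher, but 9 of them had a WT mean under 1 FPKM and passed the filter of a mean of at least 1 FPKM only through the Tbx21-KO libraries, so they had to differ and that count adds nothing to the levels. In bulk RNA, fewer cells of a type and less RNA per cell cannot be told apart.

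Xcl1 (ENSMUSG00000026573, GRCm38 chromosome 1, 164931644 to 164935527, minus strand) measured 57.7 FPKM in WT 1 and 56.3 FPKM in WT 2. In Tbx21-KO 1 it was at 3.93 FPKM (Poisson interval 2.90 to 5.21, 48 reads) and in Tbx21-KO 2 at 5.81 FPKM (4.55 to 7.30, 73 reads). The groups do not overlap, and the intervals of the Tbx21-KO libraries overlap each other. The means were 57.0 ± 0.99 FPKM for WT and 4.87 ± 1.33 FPKM for Tbx21-KO (SD, n = 2 each), an 11.7-fold difference. The log2 fold change was -3.32 (SE 0.16, 95% confidence interval -3.73 to -2.91, limma adjusted p = 0.000141). Among the 11013 genes tested, only 1 had a more negative log2 fold change of FPKM + 1. The added 1 shrinks the falls of genes at low levels, so this is not a rank of fold differences. Gm20743, described below, fell 15.8-fold by means, at a log2 fold change of -1.56. Xcl1 went from rank 861 and 893 among all genes by FPKM in WT 1 and 2 to rank 7947 and 6682 in Tbx21-KO 1 and 2.

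An annotated antisense transcript crosses Xcl1. Gm20743 (ENSMUSG00000104117, chromosome 1, 164863133 to 164936775, plus strand) is a processed transcript that shares 14.2% of the 31-base stretches of Xcl1 on the opposite strand. It was at 2.54 and 2.24 FPKM in WT, against 0.0924 and 0.209 FPKM in Tbx21-KO, and the log2 fold change was -1.56 (SE 0.12, limma adjusted p = 0.00059). It passed the filter only through the WT libraries, so it had to be lower. The strand setting of the counting was not given in the sources used here. Without strand, reads from the stretch that Xcl1 and Gm20743 share cannot be told apart. Gm20743 had 265 and 225 reads in WT, against 753 and 710 for Xcl1.

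Ccl4 (ENSMUSG00000018930, chromosome 11, 83662584 to 83664683, plus strand) also fell, by less. It was at 40.4 FPKM in WT 1, 45.9 FPKM in WT 2, 17.3 FPKM in Tbx21-KO 1 and 17.5 FPKM in Tbx21-KO 2. Both Tbx21-KO libraries lie below both WT libraries, with means of 43.1 ± 3.92 FPKM for WT and 17.4 ± 0.14 FPKM for Tbx21-KO (SD, n = 2 each). The Tbx21-KO mean was 40.4% of WT, and the log2 fold change was -1.26 (SE 0.07, 95% confidence interval -1.44 to -1.08, limma adjusted p = 0.000242). Ifng encodes interferon gamma, a cytokine of type 1 effector cells, and bulk RNA does not show whether Ccl4 and Ifng come from the same cells. The ratio of Ccl4 to Ifng was 0.592 and 0.894 in WT 1 and 2. It was 0.772 and 0.745 in Tbx21-KO 1 and 2, so the groups overlap on that ratio. The ratio of Xcl1 to Ifng was 0.846 and 1.10 in WT and 0.175 and 0.247 in Tbx21-KO, without overlap.

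Ccl3 (ENSMUSG00000000982, chromosome 11, 83647844 to 83649355, minus strand) is the neighbour of Ccl4, and moved the other way. It was at 29.2 FPKM in WT 1, 32.5 FPKM in WT 2, 82.7 FPKM in Tbx21-KO 1 and 92.5 FPKM in Tbx21-KO 2. Both Tbx21-KO libraries lie above both WT libraries. The means were 30.8 ± 2.32 FPKM for WT and 87.6 ± 6.92 FPKM for Tbx21-KO (SD, n = 2 each), a 2.84-fold difference. The log2 fold change was 1.48 (SE 0.08, 95% confidence interval 1.27 to 1.68, limma adjusted p = 0.000216). Within a library the ratio of Ccl3 to Ccl4 does not depend on how libraries are scaled. It was 0.723 and 0.707 in WT 1 and 2 and 4.77 and 5.28 in Tbx21-KO 1 and 2, a 7.03-fold difference between the group means.

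Ccl5 (ENSMUSG00000035042, chromosome 11, 83525778 to 83530518, minus strand) had the smallest change of the ligands. It was at 41.1 FPKM in WT 1, 49.6 FPKM in WT 2, 66.1 FPKM in Tbx21-KO 1 and 69.7 FPKM in Tbx21-KO 2. The groups do not overlap, though the WT libraries differ from each other by 1.21-fold. The means were 45.4 ± 5.98 FPKM for WT and 67.9 ± 2.52 FPKM for Tbx21-KO (SD, n = 2 each), or 149.6% of the WT mean. The log2 fold change was 0.58 (SE 0.10, 95% confidence interval 0.33 to 0.83, limma adjusted p = 0.00688). The ratio of Ccl5 to Ccl4 was 1.02 and 1.08 in WT, and 3.81 and 3.97 in Tbx21-KO.

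**Figure D1:**
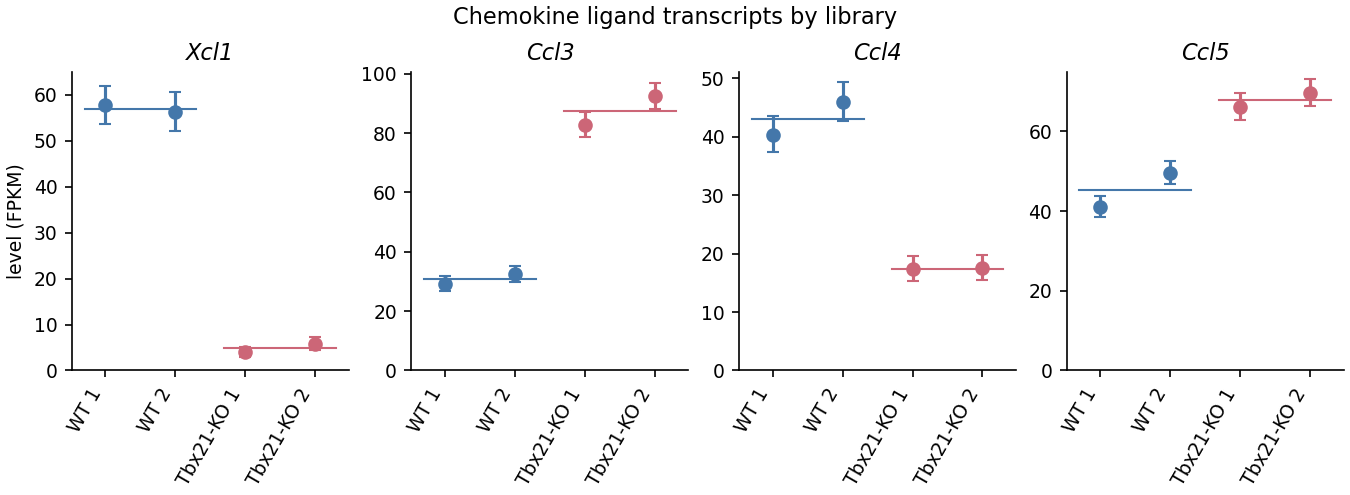
Level of each ligand in FPKM (vertical axes, starting at 0) in the 4 libraries, with 1 panel per gene. Points are libraries, error bars are 95% Poisson counting intervals and horizontal lines are group means. The Tbx21-KO libraries lie below both WT libraries for Xcl1 and Ccl4 and above them for Ccl3 and Ccl5.

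The summed FPKM of the ligands, as deposited, overlapped between the groups while its make-up differed. The sum was 168.3 and 184.2 FPKM in WT 1 and 2 and 170.1 and 185.5 FPKM in Tbx21-KO 1 and 2, so the groups overlap. The libraries were also rescaled so that a list of T cell receptor complex genes had a median log2 ratio of 0 (the T cell list scaling). The sums then did not overlap, at 148.4 and 156.3 in WT, against 201.3 and 216.0 in Tbx21-KO. That gap comes from the factors by which all levels were divided, 1.13 and 1.18 in WT and 0.845 and 0.859 in Tbx21-KO. They moved the median log2 fold change of all genes tested from 0.04 to 0.42. The shares within a library do not depend on the scaling. Xcl1 made up 34.3% and 30.5% of the sum in WT and 2.31% and 3.13% in Tbx21-KO. Ccl3 made up 17.3% and 17.6% in WT and 48.6% and 49.9% in Tbx21-KO. By level, the order in both WT libraries was Xcl1, Ccl5, Ccl4, Ccl3, and in both Tbx21-KO libraries Ccl3, Ccl5, Ccl4, Xcl1. In WT, Ccl5 and Ccl4 are neighbours in that order whose ranges over the libraries overlap.

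The place of Ccl5 in that order depends on the length behind its FPKM. With the summed exon length of 960 bases, which includes a retained-intron transcript, its values came out as whole reads to within 0.00189 of a read in each library, whereas with the 532 bases of the coding transcript they did not (up to 0.455 away). If all its reads came from the coding transcript, its level per length would be 1.80 times higher, at 74.2 and 89.5 FPKM in WT, against 119.3 and 125.7 FPKM in Tbx21-KO, which is above the other ligands in each library. The sum over the ligands would then be 201.4 and 224.1 FPKM in WT, against 223.2 and 241.5 FPKM in Tbx21-KO. The shares of Xcl1, Ccl3 and Ccl4 in the sum would be lower than those given above, in each library. The change of Ccl5 between groups is the same with either length before the pseudocount is added.

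**Figure D2:**
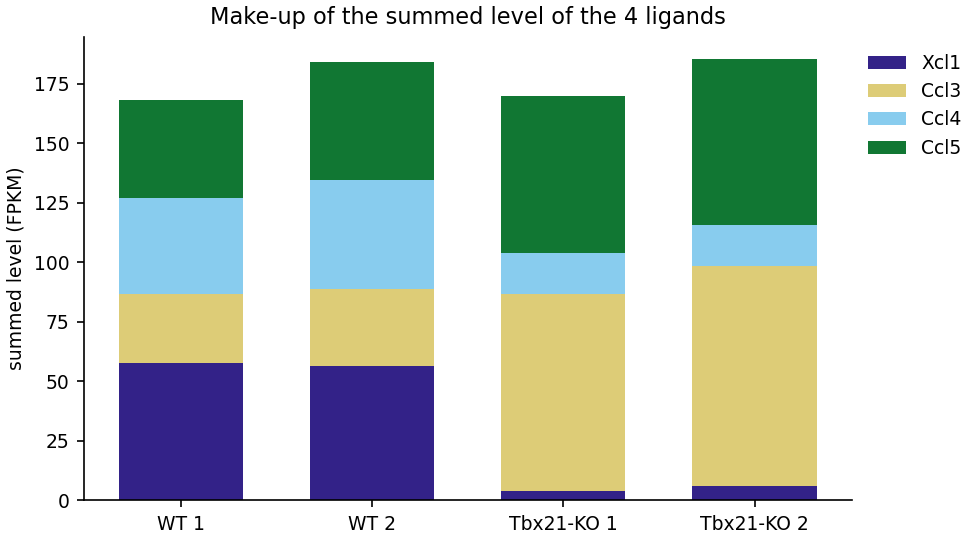
Summed FPKM of Xcl1, Ccl3, Ccl4 and Ccl5 (vertical axis) in each library, stacked by gene. The columns reach 168.3 and 184.2 FPKM in WT, against 170.1 and 185.5 FPKM in Tbx21-KO, with a small Xcl1 part and a large Ccl3 part in Tbx21-KO.

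Set against the T cell marker Cd3e, a chain of the CD3 complex, the direction of each ligand was the same. The ratio of Xcl1 to Cd3e was 1.01 and 1.00 in WT 1 and 2 and 0.0978 and 0.146 in Tbx21-KO 1 and 2. That of Ccl4 was 0.706 and 0.818 in WT and 0.431 and 0.440 in Tbx21-KO. That of Ccl3 was 0.510 and 0.579 in WT and 2.06 and 2.32 in Tbx21-KO, and that of Ccl5 was 0.720 and 0.884 in WT and 1.64 and 1.75 in Tbx21-KO. None of these ratios overlaps between the groups. For Ccl4 the choice of Cd3e matters. Over the T cell receptor complex list the Tbx21-KO mean ran from 35.3% of the WT mean for Cd28 to 155.3% for Cd5. Cd3e was at 70.7% and Ccl4 at 40.4%, so the fall of Ccl4 does not hold relative to each gene of that list. Under the T cell list scaling the log2 fold changes were -2.92 for Xcl1, -0.83 for Ccl4, 1.91 for Ccl3 and 1.01 for Ccl5, and all 4 kept their call. Most genes are called higher under it, 7738 of 11013 against 547 lower, with a median log2 fold change of 0.42. A call as higher there, as for Ccl3 and Ccl5, therefore says little by itself.

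The other chemokine ligands that were tested rose or were not called. Of 34 listed, 24 had a row, and 10 of these passed the filter of a mean of at least 1 FPKM. Of the 10, 9 rose, none fell and Ccl17 was not called (log2 fold change 0.19, adjusted p = 0.202). Of the 9 calls, that of Cxcl16 was lost in 5 of 14 other settings. Of the 10, 3 had a WT mean under 1 FPKM and passed through the Tbx21-KO libraries, so they had to differ. The median log2 fold change of the 10 was 1.33, beside 0.04 for all 11013 genes tested. With the filter set on the WT mean instead, 7 were tested and 6 rose, with a median of 0.60. Under that filter the median of all 10395 genes tested was 0.001, with 2647 higher and 2544 lower. Ccl6, a chemokine of myeloid cells, was the largest rise, from 2.57 and 4.46 FPKM in WT to 146.7 and 160.2 FPKM in Tbx21-KO. Cxcl2, which attracts neutrophils, rose from 1.94 and 1.36 to 36.0 and 34.9 FPKM. Ccl22, a ligand of Ccr4, rose by less, from 37.5 and 39.2 to 53.2 and 64.8 FPKM, and Cxcl10, a ligand of Cxcr3, from 12.2 and 12.1 to 14.6 and 15.8 FPKM.

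Xcl1 and Ccl4 were the chemokine ligands that fell among the 14 tested. With no filter, 1 more was called lower, Ccl1, a ligand of Ccr8, at 0.456 and 0.525 FPKM in WT (27 and 30 reads), against 0.0723 and 0.0527 FPKM in Tbx21-KO (4 and 3 reads), with a limma adjusted p of 0.0102. It is named here after its values were seen. The 4 ligands held 71.9% and 72.1% of the summed FPKM of the 28 measured chemokine ligands in WT 1 and 2, and 37.2% and 37.0% in Tbx21-KO 1 and 2. By FPKM as deposited, Xcl1 had the highest level of all measured chemokine ligands in both WT libraries, and Ccl6 in both Tbx21-KO libraries. With its level per coding transcript, at 74.2 and 89.5 FPKM, Ccl5 would be above Xcl1 in both WT libraries. The shares above also use FPKM as deposited.

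**Figure D3:**
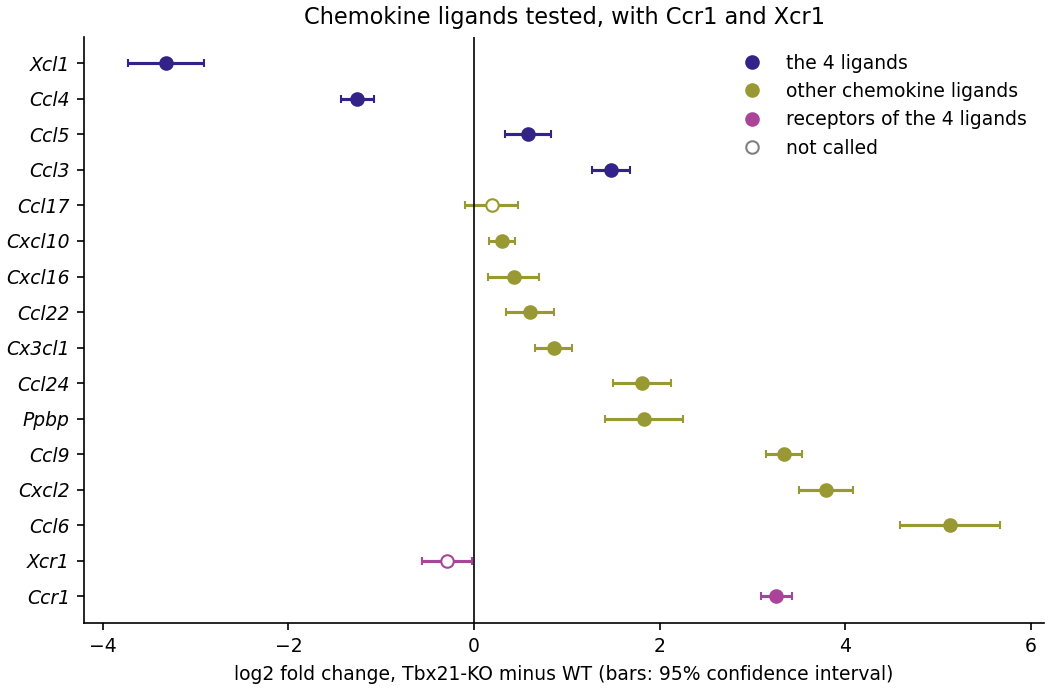
Log2 fold change, Tbx21-KO minus WT (horizontal axis), with its 95% confidence interval, for the chemokine ligands tested and the receptors Ccr1 and Xcr1. Colours separate the 4 ligands, the other ligands and the receptors, and open points were not called. Xcl1 (-3.32) and Ccl4 (-1.26) lie left of 0 and the other ligands tested lie right of it, from Ccl17 at 0.19 to Ccl6 at 5.13.

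Ccl3, Ccl4 and Ccl5 lie in 1 stretch of chromosome 11 of 138.9 kb (GRCm38, 83525778 to 83664683). The stretch was set to run from Ccl5 to Ccl4, so these genes form its ends by choice, and it was looked at after the values were seen. It holds 7 annotated genes, in the order Ccl5, Ccl9, E230016K23Rik, Ccl6, Rpl9-ps1, Ccl3 and Ccl4. Ccl9, another chemokine of myeloid cells, rose from 0.368 and 0.476 FPKM in WT to 13.1 and 13.7 FPKM in Tbx21-KO, and the log2 fold change was 3.34 (SE 0.07, limma adjusted p = 2.04e-05). E230016K23Rik and Rpl9-ps1 were below the filter. Of the 5 tested genes of the stretch, Ccl4 was lower and the other 4 were higher. Among those 4 was Ccl9, which passed the filter only through Tbx21-KO and had to be higher. The bodies of Ccl3 and Ccl4 are 13.2 kb apart and on opposite strands, with their starts facing each other.

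**Figure D4:**
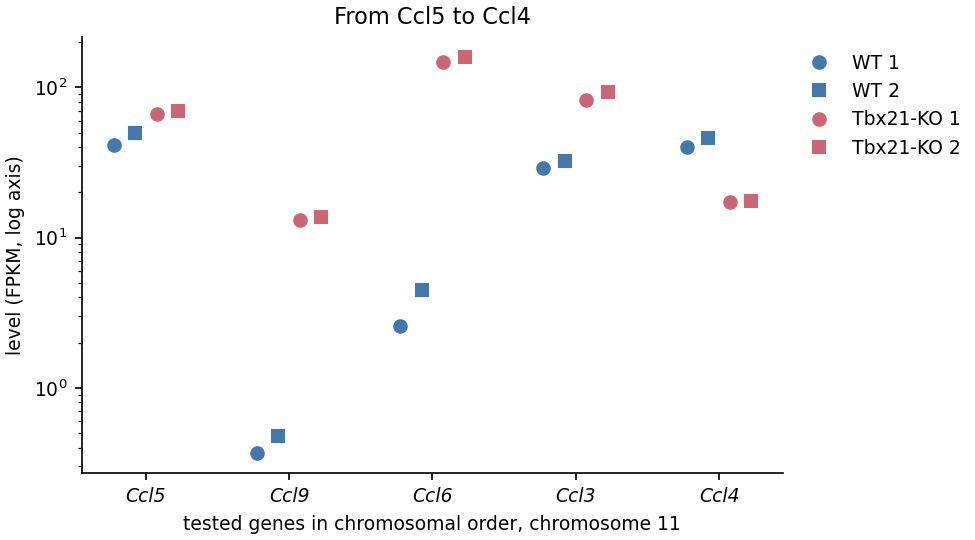
Level in FPKM (log axis) of the 5 tested genes of the chromosome 11 stretch, in chromosomal order. Circles are replicate 1, squares replicate 2, and colours are the groups. Ccl4 is the gene whose Tbx21-KO libraries (17.3 and 17.5 FPKM) lie below the WT libraries (40.4 and 45.9 FPKM).

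Upstream sequence is shown for Xcl1 and Ccl3, which moved apart. The RefSeq promoter table (GRCm38.p6) had entries for these 2 genes. Each line gives the 250 bases before the RefSeq start, in the gene's own direction, and the capitals mark matches, on either strand, to the T-box letters GGTGTGA, which T-bet and Eomes recognise, and to the NFAT core GGAAA, which reads TTTCC where the match is on the other strand.
Xcl1: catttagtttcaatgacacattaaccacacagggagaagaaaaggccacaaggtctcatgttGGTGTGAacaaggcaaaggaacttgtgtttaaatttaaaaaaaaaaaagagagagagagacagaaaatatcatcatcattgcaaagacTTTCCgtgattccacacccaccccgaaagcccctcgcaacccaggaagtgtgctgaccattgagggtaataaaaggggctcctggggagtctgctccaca
Ccl3: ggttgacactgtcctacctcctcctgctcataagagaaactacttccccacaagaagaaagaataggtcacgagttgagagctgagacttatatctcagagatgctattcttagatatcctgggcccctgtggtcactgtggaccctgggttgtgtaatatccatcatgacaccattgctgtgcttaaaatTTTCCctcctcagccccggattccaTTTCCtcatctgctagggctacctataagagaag
The Xcl1 window (chr1:164935523-164935772, minus strand) holds GGTGTGA from 188 to 182 bases before the start, and the NFAT core 100 bases before it. The Ccl3 window (chr11:83649379-83649628, minus strand) holds the NFAT core at 59 and 34 bases before the start, and no match to GGTGTGA. The 2 motifs do not overlap each other in these windows. Of all 32817 windows of this length in the table, 3.33% hold the T-box letters and 55.6% the NFAT letters. A match describes letters only, and these data do not measure binding.

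Receptors of the ligands were also measured in these cells. Ccr1, a receptor of Ccl3 and Ccl5 that myeloid cells carry, rose from 1.20 and 1.38 to 20.6 and 21.1 FPKM. Xcr1, the receptor of Xcl1, was at 1.32 and 1.54 FPKM in WT, against 1.01 and 0.962 FPKM in Tbx21-KO and was not called (log2 fold change -0.29, limma adjusted p = 0.069). Ccr3, Ackr1 and Ackr2, which also bind ligands of these families, were under the filter, and Ackr1 was at 0 in both WT libraries.

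Of 20 listed regulators of chemokine genes, all were tested, 9 rose, 8 fell and 3 were not called, with a median log2 fold change of 0.06 beside 0.04 for all genes tested. Tbx21 and Eomes, its relative in the T-box family, fell furthest, by 2.01 and 1.05 on the log2 scale. Hlx, a homeobox factor that works with T-bet, and Fos, a subunit of AP-1, rose furthest, by 1.21 and 0.83. By level, Jun, another AP-1 subunit, rose from 99.8 and 93.2 to 133.6 and 134.4 FPKM, and Zfp36, which speeds the decay of cytokine mRNAs, rose by 0.27 on the log2 scale. Zfp36l2, of the same family as Zfp36, fell by 0.43, a call that was lost under the T cell list scaling (log2 fold change 0.01). Bhlhe40 was not called (-0.04, adjusted p = 0.509) and was called higher under that scaling, at 0.40. Under that scaling 13 of the 20 regulators were higher and 4 lower, beside 7738 higher and 547 lower of all 11013 genes tested. Of the 8 falls, that of Stat4, a factor of interleukin 12 signalling, was lost in 8 of 15 other settings. Nfkb1 and Rela, called lower as deposited at -0.22 and -0.24, were called higher under the T cell list scaling, at 0.21 and 0.19.

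Ccl3, Ccl4, Ccl5 and Xcl1 leave the cell through secretion, and cytotoxic granules hold chemokines on the proteoglycan serglycin. Of 10 measured granule and secretion genes 5 rose and 5 fell, beside 30.1% called higher and 23.0% called lower of all genes tested. Under the T cell list scaling 6 were higher and 4 lower, since Unc13d, a priming factor of granule release, turned from -0.14 to 0.30, and its call as lower was lost in 6 of 15 other settings. Srgn, which encodes serglycin, rose from 343.1 and 368.2 to 567.5 and 578.9 FPKM. Rab27a, a small GTPase of granule docking, rose by 0.69 on the log2 scale. Gzmb (granzyme B) and Nkg7, a granule membrane protein, fell by 1.89 and 1.34, and Prf1 (perforin) by 0.98. The list's median log2 fold change was 0.08, beside 0.04 for all genes tested. Under the T cell list scaling it was 0.51, beside 0.42 for all genes tested, of which 7738 of 11013 were then higher and 547 lower.

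Cytokine genes that T cells express with chemokines split as well. Of 14 listed, 11 were tested, 8 rose, 2 fell and 1 was not called. Il4 (interleukin 4) was among the 8 and passed the filter only through Tbx21-KO. With the filter set on the WT mean, 7 of 10 rose and 2 fell, with a median log2 fold change of 1.24, beside 0.001 for all genes tested under that filter. Ifng fell from 68.2 and 51.4 to 22.5 and 23.5 FPKM, and Il10 by 0.68 on the log2 scale, a call lost with no filter and under the T cell list scaling. Il17a, Il22 and Lta (lymphotoxin alpha) rose by 3.23, 2.61 and 0.91. Ltb (lymphotoxin beta) was not called (-0.04, adjusted p = 0.465) and was called higher under the T cell list scaling, at 0.40.

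Genes whose levels over the 4 libraries ran closest to each ligand were found by the Euclidean distance of centred log2(FPKM + 1) values, among 9521 other protein-coding genes tested. For Xcl1 they were Cxcr3, Klra7 and Ctse, at distances of 0.52, 0.70 and 0.72. For Ccl4 they were Lgals3, Dnajc15 and Txk, at 0.07, 0.11 and 0.12. For Ccl3 they were Ifngr2, Mmp12 and Bik, at 0.02, 0.04 and 0.06. For Ccl5 they were Mt1, S100a10 and Acy1, at 0.04, 0.05 and 0.06. With 4 libraries in 2 groups, these distances reflect mainly the size of the change. The nearest genes to Xcl1 were far from it compared with those of the other ligands.

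Markers of other cell types differed between the same libraries. Their summed levels include genes below the filter. Their calls stand beside 30.1% called higher and 23.0% called lower of all genes tested. Mast cell, basophil and eosinophil markers had summed levels over 11 measured genes of 26.4 and 28.6 FPKM in WT, against 660.9 and 659.6 FPKM in Tbx21-KO. Prss34 and Prg2 had the highest levels, at averages of 203.6 and 199.4 FPKM in Tbx21-KO. Of the 10 tested, 6 passed the filter only through Tbx21-KO, and of the other 4, 3 rose and 1 fell. Macrophage and monocyte markers had summed levels over 9 measured genes of 199.2 and 199.1 FPKM in WT, against 485.7 and 517.1 FPKM in Tbx21-KO. Ly6c2, which lymphocytes also express, had 161.9 to 163.9 FPKM of that sum in WT, and Lyz2 went from 2.68 and 3.84 to 197.8 and 216.2 FPKM. Of the 7 tested, 2 passed only through Tbx21-KO, and the other 5 rose. These are cells that can express Ccl3, whose rise in the same 2 libraries was 2.84-fold, and their part in it was not tested.

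Of 7 tested dendritic cell markers 5 rose and 2 were not called, with summed levels over 11 genes of 51.9 and 57.5 FPKM in WT, against 153.9 and 159.6 FPKM in Tbx21-KO. H2-Ab1 and Cd74, both of antigen presentation, had the highest levels. Itgax and Xcr1 were the 2 not called, at log2 fold changes of -0.22 and -0.29. Clec9a was at 0 in both WT libraries and at 1 and 3 reads in Tbx21-KO 1 and 2 (0.0130 and 0.0379 FPKM). Both tested B cell markers, Ighm and Igkc, rose (the call of Ighm was lost in 5 of 15 other settings), with summed levels over 6 genes of 39.1 and 41.2 FPKM in WT, against 75.8 and 72.0 FPKM in Tbx21-KO. Platelet and megakaryocyte markers had summed levels over 6 genes of 25.5 and 23.8 FPKM in WT, against 40.5 and 39.4 FPKM in Tbx21-KO, most of it Itgb3, which other cells express too. Of the 3 tested, Itgb3 rose and 2 passed only through Tbx21-KO. Ppbp, a platelet chemokine, was at 0.259 and 0.689 FPKM in WT, against 4.07 and 4.26 FPKM in Tbx21-KO, beside 66.1 and 69.7 FPKM of Ccl5. Of 6 tested NK cell markers 5 fell and 1 rose, with summed levels over 7 genes of 255.1 and 252.6 FPKM in WT, against 119.6 and 125.9 FPKM in Tbx21-KO. Klrd1 and Cd160, the highest of them, fell by 1.54 and 2.08 on the log2 scale, and Xcl1 and Ccl4 fell in the same libraries. No gene of these marker lists was at 0 in every library. The part of these cell types in the change of the ligands was not tested.

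The changes of the ligands were recomputed under 15 other settings, and each ligand kept its direction and its call in all 15. The widest range was that of Xcl1, from -3.56 with voom on recovered reads to -2.66 with a pseudocount of 5. Ccl4 ranged from -1.35 to -0.83 and Ccl3 from 1.37 to 1.91. Ccl5 ranged from 0.44 to 1.01 and came closest to losing its call, with a limma adjusted p of 0.0471 without Tbx21-KO 2.

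**Figure D5:**
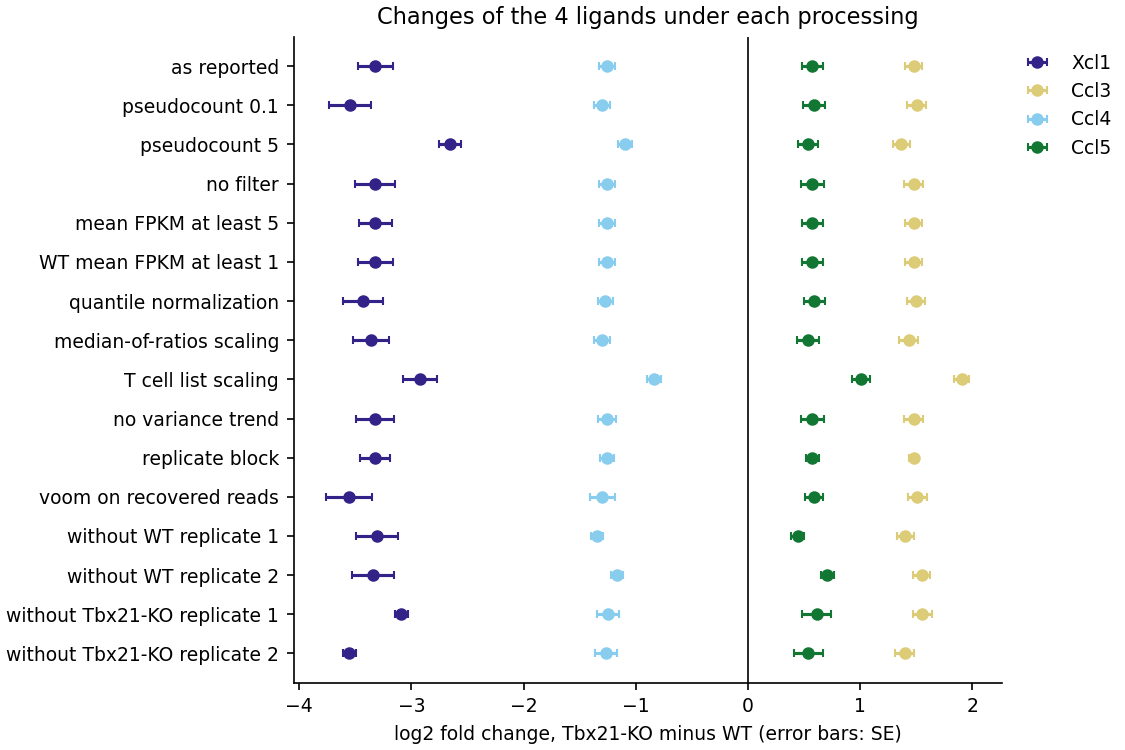
Log2 fold change of each ligand, Tbx21-KO minus WT (horizontal axis, error bars are SE), as reported and under 15 other settings (rows). Xcl1 and Ccl4 stay left of 0 and Ccl5 and Ccl3 right of 0 in every row, and the T cell list scaling moves all 4 to the right.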

How the data were processed

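RNA of 4 mouse T cell libraries was sequenced after column extraction and mRNA library preparation, per the labels' protocols. The authors deposited 1 FPKM value per gene and library. The builds are GRCm38 and mm10, per the submitters' processing notes. The aligner, counter and strand setting were not given in the sources used here. Of 24769 rows, 1 broke off and was left out. Ensembl IDs were matched to GENCODE M21 (GRCm38), and 24720 matched. Reads were recovered from FPKM and the summed exon length, and 96.8% to 97.3% of the values under 20 reads were whole within 0.1 read.

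Values were tested as log2(FPKM + 1) for genes whose mean FPKM was 1 or more, with limma 3.58.1 in R 4.3.3 (intensity trend, Benjamini-Hochberg adjustment over 11013 genes). The members and lists were chosen with earlier results of these data known. Named genes are the 4 ligands, Tbx21, from each list the 4 with the highest mean FPKM and the 2 largest rises and falls called, the 3 nearest profiles per ligand, and the 2 highest markers per cell type. Ccl1, Ccl9, Ccl17, Cxcl16, Il4, Stat4, Unc13d, the receptors under the filter, Gm20743 and the other chromosome 11 genes, Cd3e, Cd5, Cd28, Itgax and Clec9a were named after their values were seen. So were Nfkb1, Rela, Batf3, H2-Aa, H2-Eb1, Flt3, Zbtb46 and Cd209a. 1 listed gene is not reported here. Other pseudocounts, filters, scalings, variance models, a replicate block, voom and leaving out each library were tried.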

Additional observations from a re-analysis of the deposited data

How the results depend on the processing

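The direction and the call of Xcl1, Ccl3, Ccl4 and Ccl5 were kept under the 15 alternatives run. Without each library in turn, where the lone library of a group is assumed to vary like the other group, the log2 fold changes ran from -3.55 to -3.09 for Xcl1, 1.40 to 1.56 for Ccl3, -1.35 to -1.17 for Ccl4 and 0.44 to 0.71 for Ccl5. Higher genes made up 56.7% of all calls as deposited, 39.1% under quantile normalization and 93.4% under the T cell list scaling, and the median log2 fold change of all genes was 0.04, -0.10 and 0.42. With a minimum mean FPKM of 5, where 6 of the other chemokine ligands were tested in place of 10, 5 were called. Of the receptors Ccr1 and Xcr1, 1 was called as deposited and 2 under quantile normalization, 2 with no variance trend and 2 with voom on recovered reads, where Xcr1 was called lower. With the replicate number as a block, 5727 genes were called in place of 5846 and no ligand lost its call. Same-numbered libraries did not deviate together (correlation -0.02 over genes), so the numbers are not taken as pairs. The 48 and 73 reads of Xcl1 in Tbx21-KO limit the precision of its fold change.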
